A study of Mus musculus with 6 samples.

Results

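The genes described here are 10 genes of meiotic prophase, the parts list of the synaptonemal complex (Sycp1, Sycp2, Sycp3, Syce1, Syce2, Syce3 and Tex12) and of meiosis-specific cohesin (Smc1b, Rec8 and Stag3). They were chosen by symbol, and all 10 were found among 22770 gene rows of a ribosome profiling table from mouse round spermatids. Footprints, the RNA stretches that ribosomes cover, were sequenced from 3 libraries of the genotype labelled Eif5a SKO and 3 libraries of wild-type mice. Both groups are round spermatids of the testis, lysed with cycloheximide. The labels do not say what SKO stands for, and they give no Cre driver and no age of the mice. The series' design text, written for an accessibility assay, speaks of sorted cells from 3 mice per group. The values are FPKM, which divide the fragments of a gene by its transcript length and by the mapped fragments of the library. Ribosomes cover mainly the coding part of a transcript. A level set beside that of another gene therefore also depends on the untranslated lengths, and orders of genes below are orders of FPKM, not of ribosome density. A footprint level combines the amount of an mRNA with the ribosomes on it, and matched RNA levels are not used here. In bulk samples such as these, fewer cells of a type and less RNA per cell cannot be told apart.

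The synaptonemal complex is the protein zipper that holds paired homologous chromosomes together in meiotic prophase. SYCP2 and SYCP3 build its lateral elements along each chromosome axis, SYCP1 forms the transverse filaments that cross the gap, and SYCE1, SYCE2, SYCE3 and TEX12 form the central element where filaments from both sides meet. The axis rests on cohesin rings in which SMC1B, REC8 and STAG3 take the places of the general subunits SMC1A, RAD21 and STAG1 or STAG2. The synaptonemal complex is taken apart before the meiotic divisions and the cohesin is cut as chromosomes part in them. Round spermatids are the haploid cells that come after, so the genes belong to a programme earlier than the labelled cells. Whether their footprints came from mRNA left over in these cells or from spermatocytes in the samples was not tested.

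The start sites of Sycp3, Syce2 and Syce3 are printed because these 3 genes stood furthest apart between the genotypes relative to the other members, as given further on. Each window runs from 250 bases before to 50 bases after a RefSeq start site of GRCm38.p6, on the gene's strand. The Sycp3 window is chr10:88459337-88459636 on the plus strand, the Syce2 window is chr8:84872008-84872307 on the plus strand, and the Syce3 window is chr15:89410214-89410513 on the minus strand. Capitals mark CACGTG, the E-box core, and TCCCGC, the core of an E2F-type site, on either strand, so that TCCCGC on the other strand reads GCGGGA.
Sycp3: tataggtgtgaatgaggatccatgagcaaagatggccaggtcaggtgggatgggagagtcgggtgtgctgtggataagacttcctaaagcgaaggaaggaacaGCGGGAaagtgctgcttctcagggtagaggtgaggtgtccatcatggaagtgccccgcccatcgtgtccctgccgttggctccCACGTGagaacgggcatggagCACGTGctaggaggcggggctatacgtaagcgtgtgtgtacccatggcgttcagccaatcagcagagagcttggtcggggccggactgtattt
Syce2: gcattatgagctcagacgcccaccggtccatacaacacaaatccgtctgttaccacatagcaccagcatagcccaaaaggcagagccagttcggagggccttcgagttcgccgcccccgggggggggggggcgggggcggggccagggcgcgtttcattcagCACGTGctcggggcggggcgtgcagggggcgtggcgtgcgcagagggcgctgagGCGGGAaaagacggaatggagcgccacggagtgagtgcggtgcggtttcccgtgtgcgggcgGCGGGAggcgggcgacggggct
Syce3: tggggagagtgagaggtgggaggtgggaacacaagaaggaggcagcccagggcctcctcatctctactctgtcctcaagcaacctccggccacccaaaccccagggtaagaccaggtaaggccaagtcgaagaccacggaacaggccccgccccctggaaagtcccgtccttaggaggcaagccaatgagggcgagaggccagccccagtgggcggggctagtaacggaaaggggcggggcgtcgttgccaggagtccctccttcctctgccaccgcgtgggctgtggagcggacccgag
E-box and E2F-type letters are known from promoters of germline genes that somatic cells keep silent. Sycp3 held 2 E-boxes, with first bases at -64 and -43 from the start site, and an E2F-type match at -147. Syce2 held an E-box at -88 and E2F-type matches at -34 and 29 in this window. Syce3 held neither in either of its windows, and Syce1 and Sycp2 held neither as well. Over the 10 genes and their 12 windows, both motifs occurred in 5 genes (Sycp1, Sycp3, Syce2, Tex12 and Stag3), against 4.15% of the 9077 tested protein-coding genes with a window. CACGTG, with or without TCCCGC, was counted in the same 5 of the 10 genes, against 11.3% of those tested genes and 8.09% of all 27025 genes of the promoter table. TCCCGC was counted in 7 of the 10 genes, against 36.6% and 22.0%, Rec8 and Smc1b being the further genes that held it. No E-box overlapped an E2F-type match. These motifs were picked after several had been looked at in these windows, and a match is a string of letters, not a measured site.

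The libraries were of unequal depth and composition. The absolute depth is unknown. Steps between values under 1 FPKM gave depths relative to SKO replicate 1 of 0.503 and 0.771 for SKO replicates 2 and 3 and of 0.631 to 0.787 for the wild-type libraries. Protein-coding rows held 18.3% to 33.1% of the summed FPKM in the SKO libraries and 22.5% to 28.5% in the wild-type libraries. The targeted gene Eif5a, which encodes the hypusine-carrying translation factor, had 2.25 ± 0.642 FPKM in the SKO libraries and 48.3 ± 13.9 FPKM in the wild-type libraries (SD, n = 3 each), with a log2 fold change of -3.90 (SE 0.37, limma, adjusted p = 0.00641, two-sided exact permutation p = 0.1, the smallest that 20 assignments allow). Of 24 round spermatid markers in the table, 22 had a mean of at least 1 FPKM. Of those, 3 passed the test after a scaling of the libraries (TMM-type, below), where 1.02% of all tested rows passed, and 0 passed with the deposited values, where 0.128% did. The list's summed level was 1612 to 3247 FPKM in the SKO libraries and 1066 to 1919 FPKM in the wild-type libraries. With the deposited values the median log2 fold change of the 22 was 0.59 relative to all tested rows, with 19 above and 3 below. Groups without overlap were seen for 9, all higher in SKO, against 15.7% of tested rows in either direction. An unadjusted p under 0.05 (limma) was reached by 8, against 11.0% of tested rows. Separate cultures or animals behind the replicates are not stated for these libraries, so the spread behind each p-value is that between these libraries and may be technical.

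Footprints on the meiotic genes other than Tex12 were plentiful in both genotypes. The 10 genes together held 0.170%, 0.191% and 0.176% of the summed protein-coding FPKM in the SKO libraries, against 0.186%, 0.194% and 0.217% in the wild-type libraries, so the 2 sets of shares overlapped. By mean level over the 6 libraries, 7 of the 10 lay at or above the 87th percentile of the 11157 tested protein-coding rows. Syce3 reached percentile 96.1, Smc1b 95.6 and Syce1 95.5, while Syce2 and Sycp1 lay at 70.8 and 66.1 and Tex12 at 7.39. The presence of spermatocytes in the samples was not tested. The 18 spermatocyte markers outside the synaptonemal complex summed to 3048 to 6641 FPKM in SKO and 3474 to 6692 FPKM in wild type. None was at 0 in every library. Spermatids also express several of them, such as the lactate dehydrogenase gene Ldhc. Ldhc made up most of the sum, with means of 3711 FPKM in SKO and 3846 FPKM in wild type. By log2 fold change, 12 of the 18 lay above the median of all tested rows. Groups without overlap were seen for 4, all higher in SKO, against 15.7% of tested rows in either direction. H1f6 and Tex101 were among these 4, and 0 of the 18 passed the test.

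None of the transverse filament and lateral element genes passed the test, and of their means Sycp3 alone was higher in SKO. Sycp1 (identifier 20957, chromosome 3, 102818499 to 102936100) had 7.03, 5.96 and 8.08 FPKM in SKO replicates 1, 2 and 3, against 5.97, 9.01 and 9.53 FPKM in the wild-type replicates. The 2 ranges overlapped, and the means were 7.02 ± 1.06 FPKM in SKO and 8.17 ± 1.93 FPKM in wild type (SD, n = 3 each). Sycp2 (identifier 320558, chromosome 2, 178345295 to 178407776) had 24.3, 28.8 and 27.4 FPKM in the SKO replicates, against 28.5, 38.5 and 51.2 FPKM in the wild-type replicates. Its groups met only at their edges, where SKO replicate 2 lay just above wild-type replicate 1, and the means were 26.8 ± 2.35 and 39.4 ± 11.4 FPKM. Sycp3 (identifier 20962, chromosome 10, 88459587 to 88473236) had 25.7, 65.4 and 51.6 FPKM in the SKO replicates, against 20.4, 24.1 and 31.9 FPKM in the wild-type replicates. Here SKO replicates 2 and 3 lay above every wild-type library and SKO replicate 1 among them. The Sycp3 mean of 47.6 ± 20.1 FPKM in SKO was 1.87 times the mean of 25.5 ± 5.91 FPKM in wild type.

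The central element genes spread the furthest. Syce1 (identifier 74075, chromosome 7, 140777229 to 140787854) had 39.5, 109 and 70.6 FPKM in the SKO replicates, against 45.4, 64.6 and 84.4 FPKM in the wild-type replicates, with SKO libraries at both ends of the range. Syce3 (identifier 75459, chromosome 15, 89390174 to 89410503), whose small protein links the transverse filaments to the rest of the central element, had 57.5, 161 and 91.2 FPKM in the SKO replicates, against 39.6, 43.8 and 65.0 FPKM in the wild-type replicates. SKO replicate 1 was the only SKO library below a wild-type library. The Syce3 mean was 103 ± 52.8 FPKM in SKO and 49.5 ± 13.6 FPKM in wild type, a ratio of 2.09. Syce2 (identifier 71846, chromosome 8, 84872111 to 84887446), whose protein assembles with TEX12 into fibres of the central element, had 3.74, 7.73 and 5.59 FPKM in the SKO replicates, against 7.34, 13.2 and 18.6 FPKM in the wild-type replicates. Only SKO replicate 2 and wild-type replicate 1 crossed. The Syce2 mean of 5.69 ± 2.00 FPKM in SKO was 0.436 times the mean of 13.0 ± 5.64 FPKM in wild type.

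Tex12 (identifier 66654, chromosome 9, 50557148 to 50561268), the partner of Syce2, was the scarcest member. It had 1.83, 1.04 and 2.03 FPKM in the SKO replicates, against 0.663 and 2.07 FPKM in wild-type replicates 1 and 3, and it was listed at 0 in wild-type replicate 2. After correction for relative depth these values were 7, 2 and 6 whole-number steps in the SKO replicates and 2, 0 and 5 steps in the wild-type replicates, within 2%. Such steps, up to 12 of them, occurred in 6.98% of tested rows and in no other member. The pattern is that of a handful of reads per library, at which a difference between the genotypes was not detectable.

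The 3 meiotic cohesin genes all had lower means in the SKO libraries, with overlapping groups, and Stag3 lost this direction on the log2 scale without wild-type replicate 3. Smc1b (identifier 140557, chromosome 15, 85064689 to 85131957), the SMC subunit, had 44.2, 67.5 and 55.2 FPKM in the SKO replicates, against 54.9, 67.5 and 126 FPKM in the wild-type replicates. Wild-type replicate 3 stood far above the others, and the means were 55.6 ± 11.7 FPKM in SKO and 82.8 ± 37.9 FPKM in wild type. Rec8 (identifier 56739, chromosome 14, 55618002 to 55625395), the kleisin that closes the ring and is cut when chromosomes part, had 22.1, 36.5 and 23.8 FPKM in the SKO replicates, against 21.5, 34.9 and 41.0 FPKM in the wild-type replicates. Stag3 (identifier 50878, chromosome 5, 138272514 to 138312397), the subunit that binds the kleisin, had 12.8, 25.5 and 25.0 FPKM in the SKO replicates, against 15.9, 24.0 and 48.2 FPKM in the wild-type replicates. For both genes the SKO values lay within or near the span of the wild-type values, and wild-type replicate 3 was again the highest library.

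**Figure D1:**
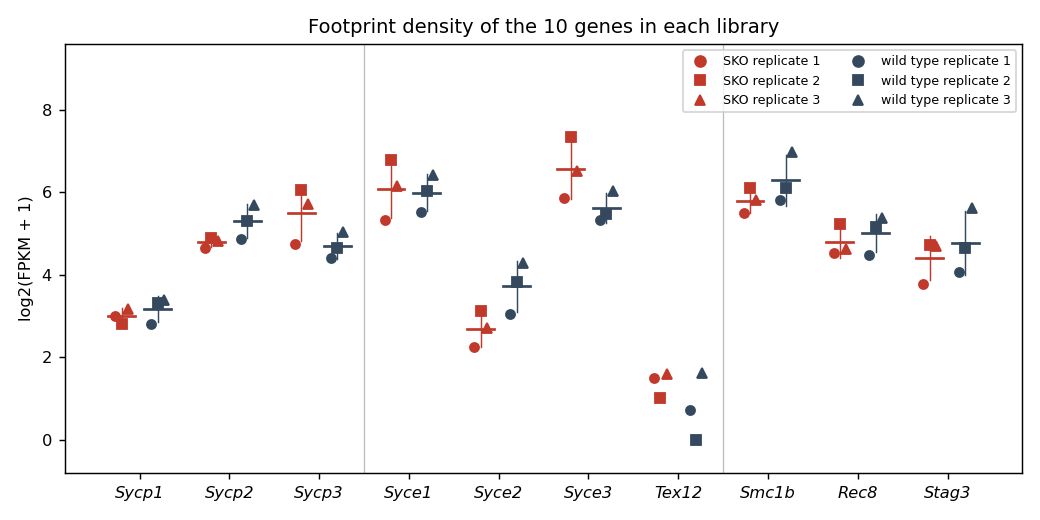
Footprint level of the 10 genes, as log2(FPKM + 1) on the vertical axis, in each of the 3 SKO libraries (red, left) and 3 wild-type libraries (dark, right). Horizontal bars are group means and vertical bars 1 SD (n = 3; none is drawn for Tex12, listed at 0 in a library); SKO replicates 2 and 3 lie above every wild-type library for Sycp3 and Syce3, and the groups of all 10 genes overlap.

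Many members were high or low together in the same libraries. Wild-type replicate 3 was the highest wild-type library for 10 of 10 members and wild-type replicate 1 the lowest for 9. SKO replicate 2 was the highest SKO library for 8 members and SKO replicate 1 the lowest for 8. Scaling factors of the TMM type, each a trimmed mean of a library's log ratios over all tested rows, ran the same way, at 0.848, 1.31 and 1.08 for SKO replicates 1, 2 and 3 and 0.812, 0.927 and 1.11 for the wild-type replicates. The values were therefore also compared after division by these factors.

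With the deposited values, 0 of the 10 members passed the test at an adjusted p under 0.05 (limma on log2(FPKM + 1), two-sided, Benjamini-Hochberg over all 15578 tested rows, which averaged 1 FPKM or more), where 0.128% of all tested rows passed. All 10 members were among the tested rows. An unadjusted p under 0.05 was reached by 1 member, Syce2, against 11.0% of tested rows, and 0 members had groups without overlap, against 15.7% of tested rows. Syce2 had a log2 fold change of -1.03 (95% interval -1.99 to -0.07, adjusted p = 0.422), Syce3 of 0.95 (-0.10 to 2.01, adjusted p = 0.493) and Sycp3 of 0.80 (-0.19 to 1.79, adjusted p = 0.549). The other log2 fold changes were 0.59 for Tex12, 0.10 for Syce1, -0.18 for Sycp1, -0.22 for Rec8, -0.38 for Stag3, -0.49 for Smc1b and -0.50 for Sycp2. Syce1 turned to -0.07 under the scaling described next, and Stag3 to 0.04 without wild-type replicate 3. Of the 10 values 4 were positive and 6 negative, and the median was -0.20, which is -0.33 relative to the median of 0.127 over all tested rows. The intervals were wide: they held a log2 fold change of 1, a 2-fold higher level, for 4 members and of -1 for 5, so a change of that size lay within the error for these genes.

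**Figure D2:**
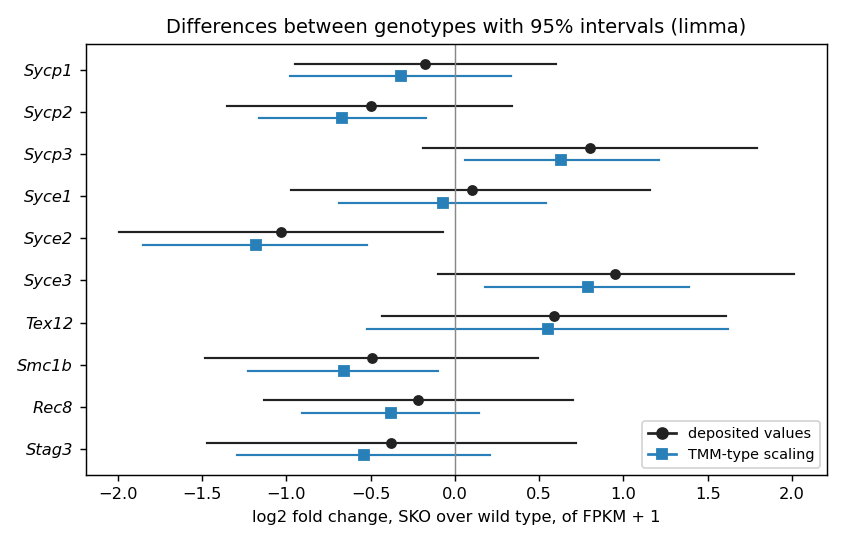
Log2 fold change of FPKM + 1, SKO over wild type, for each gene (points) with its 95% interval (lines) from limma, with the deposited values (black circles) and after TMM-type scaling (blue squares). Syce2 lies furthest to the left at -1.03 and -1.18, Syce3 and Sycp3 furthest to the right with the deposited values at 0.95 and 0.80, and scaling narrowed the intervals of 9 of the 10 genes.

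After TMM-type scaling the replicates of most members drew together, but the SKO replicates of Sycp1, Sycp2 and Tex12 moved apart. For Sycp2 the SD in SKO was 2.35 FPKM before scaling and 3.28 FPKM after it. Scaled Smc1b levels were 52.1, 51.6 and 51.3 FPKM in the SKO replicates, against 67.7, 72.9 and 113 FPKM in the wild-type replicates. Scaled Sycp2 levels were 28.6, 22.0 and 25.5 FPKM in the SKO replicates, against 35.1, 41.6 and 46.0 FPKM in the wild-type replicates. For both genes every SKO library now lay below every wild-type library. Scaled Syce2 levels were 4.41, 5.91 and 5.19 FPKM in the SKO replicates, against 9.04, 14.2 and 16.7 FPKM in the wild-type replicates, also without overlap. Scaled Syce3 levels were 67.8, 123 and 84.8 FPKM in the SKO replicates, against 48.7, 47.3 and 58.4 FPKM in the wild-type replicates. Scaled Sycp3 levels were 30.3, 50.0 and 48.0 FPKM in the SKO replicates, against 25.1, 26.0 and 28.7 FPKM in the wild-type replicates. Syce3 and Sycp3 were thus higher in every SKO library than in any wild-type library.

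Counted this way, 2 members had groups without overlap and higher SKO values, where 11.6% of all tested rows did, and 3 had groups without overlap and lower SKO values, where 9.85% did. Still 0 members passed the adjusted test under this scaling, where 1.02% of tested rows passed, and 5 had an unadjusted p under 0.05, where 15.6% of tested rows did. The scaled log2 fold changes were -1.18 for Syce2 (SE 0.29, limma, adjusted p = 0.106), 0.79 for Syce3 (SE 0.26, adjusted p = 0.205), -0.67 for Sycp2 (SE 0.21, adjusted p = 0.186), -0.66 for Smc1b (SE 0.24, adjusted p = 0.247) and 0.63 for Sycp3 (SE 0.25, adjusted p = 0.272). Syce2 passed in 1 of 16 other settings, when each library was scaled to an equal sum over protein-coding rows (log2 fold change -1.24, adjusted p = 0.0359), and the other 9 members passed in none.

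Levels of 2 genes within a library can be compared without any scaling of that library. The ratio of Sycp3 to Sycp2, both lateral element genes, was 1.06, 2.27 and 1.88 in the SKO replicates, against 0.714, 0.625 and 0.624 in the wild-type replicates. Sycp3 thus lay above Sycp2 in all 3 SKO libraries and below it in all 3 wild-type libraries. The ratio of Syce3 to Syce2, both central element genes, was 15.4, 20.8 and 16.3 in the SKO replicates, against 5.39, 3.33 and 3.49 in the wild-type replicates. The log2 ratio of Syce2 to Syce3 (of FPKM + 1) was -3.88 ± 0.30 in SKO and -1.90 ± 0.34 in wild type (SD, n = 3 each), a difference of -1.98 and the largest among the 45 pairs of members. These pairs were picked after their values were seen, so no test is given.

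Among the 45 pairs, 23 had log2 ratios without overlap between the genotypes, a share of 51.1%, against 20.4% of all pairs of tested protein-coding rows. Without Tex12, which rests on few reads, 19 of 36 pairs did, a share of 52.8%, against 31.8% of all pairs of protein-coding rows that averaged 5 FPKM or more. Pairs share genes and are not separate measurements. Most of the count came from pairs with Sycp3, Syce3 or Syce2, of which 19 of 24 (79.2%) did not overlap. Among the other 7 members 4 of the 21 pairs (19.0%) did not, beside the 20.4% of all pairs. Those 4 were Tex12 with Sycp1, Sycp2 and Smc1b, and Syce1 with Stag3. With Tex12 set aside only Syce1 with Stag3 was left, beside the 31.8% of pairs of rows that averaged 5 FPKM or more. Sycp3, Syce3 and Syce2 were singled out from these same values, so the split describes the count and tests nothing.

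**Figure D3:**
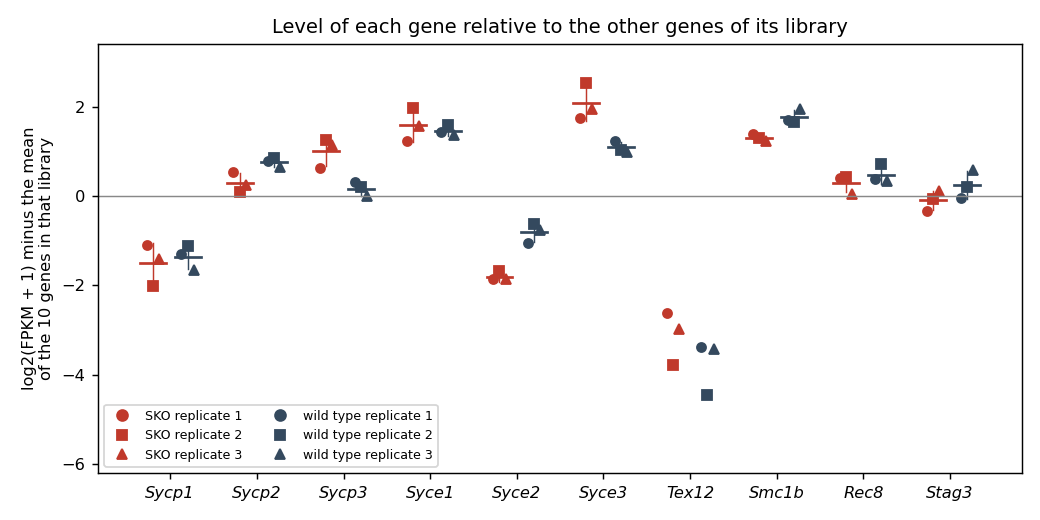
Level of each gene in each library as log2(FPKM + 1) minus the mean of the 10 genes in that library, for the 3 SKO libraries (red, left) and the 3 wild-type libraries (dark, right), with group means and 1 SD (n = 3; none is drawn for Tex12). Sycp3 and Syce3 lie higher in every SKO library, Syce2, Sycp2 and Smc1b lower, and the other 5 genes overlap. A share over all rows was not computed for this scale.

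Relative to the mean of the 10 genes in its own library, Syce3 was 0.99 higher on the log2 scale in SKO than in wild type and Sycp3 0.84 higher. On the same scale the differences of SKO minus wild type were -0.99 for Syce2, -0.47 for Sycp2 and -0.46 for Smc1b. These 5 genes did not overlap between the genotypes, while Sycp1, Syce1, Tex12, Rec8 and Stag3 did. The share of all tested rows without overlap on this centred scale was not computed, so the count has no background. Because the 10 values of a library are centred together, a high gene lowers the others.

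The order of the levels differed between the genotypes. In the SKO libraries the order by mean was Syce3, Syce1, Smc1b, Sycp3, Rec8, Sycp2, Stag3, Sycp1, Syce2 and Tex12. In the wild-type libraries it was Smc1b, Syce1, Syce3, Sycp2, Rec8, Stag3, Sycp3, Syce2, Sycp1 and Tex12. Syce3 was the highest of the 10 in each SKO library, and Smc1b was the highest in each wild-type library. Neighbours in these orders had overlapping ranges except Stag3 over Sycp1 and Syce2 over Tex12 in SKO, and Sycp3 over Syce2 and Sycp1 over Tex12 in wild type.

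The meiotic cohesin genes were set against their general counterparts within each library. Rad21, the general kleisin, had 2.71, 6.33 and 4.71 FPKM in the SKO replicates, against 4.72, 3.73 and 4.52 FPKM in the wild-type replicates, so Rec8 exceeded it in all 6 libraries. The log2 ratio of Rec8 to Rad21 (of FPKM + 1) was 2.37 ± 0.26 in SKO and 2.61 ± 0.55 in wild type (SD, n = 3 each; two-sided exact permutation p = 0.6). Smc1a, the general SMC subunit gene, had 3.47, 3.77 and 6.41 FPKM in the SKO replicates, against 3.10, 2.19 and 3.15 FPKM in the wild-type replicates. The log2 ratio of Smc1b to Smc1a was 3.37 ± 0.46 in SKO and 4.38 ± 0.58 in wild type, with overlapping values (exact permutation p = 0.2).

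Stag3 and Stag2 came closest to each other. Stag2 had 17.9, 11.8 and 10.3 FPKM in the SKO replicates, against 5.08, 3.33 and 7.82 FPKM in the wild-type replicates, without overlap, and did not pass the test over all rows (log2 fold change 1.19, limma, adjusted p = 0.320). The log2 ratio of Stag3 to Stag2 was -0.45, 1.05 and 1.19 in the SKO replicates, against 1.47, 2.53 and 2.48 in the wild-type replicates, and in SKO replicate 1 Stag2 exceeded its meiotic counterpart. The difference of the means was -1.56 (exact permutation p = 0.1, the smallest possible, and 0.3 adjusted over the 3 pairs). Stag2 and Smc1a are X-linked and Rad21 is on chromosome 15. For 364 X-linked protein-coding genes the median log2 fold change was 0.65 relative to all tested rows, against -0.03 for autosomal genes, and the part of this shift in the ratios was not tested. The autosomal counterpart Stag1 had 6.59 ± 2.70 FPKM in SKO and 8.68 ± 3.83 FPKM in wild type (SD, n = 3 each), with overlapping values.

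**Figure D4:**
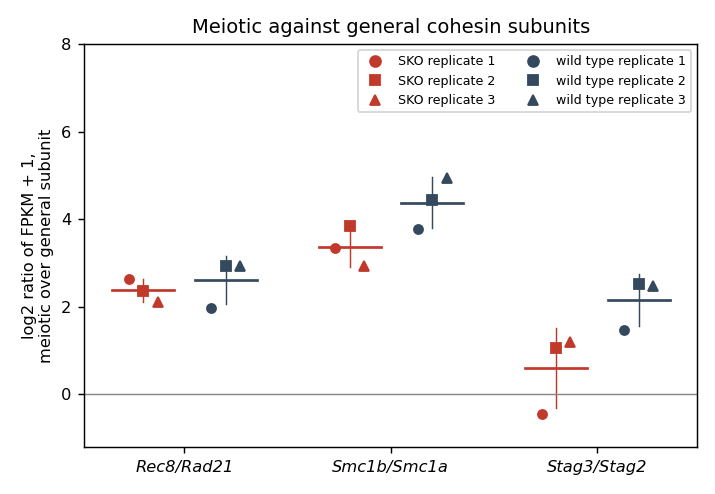
Log2 ratio of FPKM + 1 within each library, meiotic over general cohesin subunit, for the 3 SKO libraries (red, left) and 3 wild-type libraries (dark, right), with group means and 1 SD (n = 3). The Stag3 to Stag2 ratio runs from -0.45 to 1.19 in SKO and from 1.47 to 2.53 in wild type, and the other pairs overlap.

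Other genes of meiosis were looked up from 5 lists, and 0 of their 77 tested members passed the test with the deposited values or after TMM-type scaling (limma), where 0.128% and 1.02% of all tested rows passed. With the deposited values 8 had an unadjusted p under 0.05, against 11.0% of all tested rows. Each list is described by its median relative to all tested rows. For the 7 tested axis and synaptonemal genes this median was 0.58 on the log2 scale, with 6 of 7 above that of all rows. Skp1a, a ubiquitin ligase adaptor gene with many uses, had 368 ± 151 FPKM in SKO and 218 ± 49.5 FPKM in wild type, and the axis gene Hormad1 had 11.0 ± 2.27 and 9.36 ± 2.08 FPKM (SD, n = 3 each). The row 4930447C04Rik, which is Six6os1 and encodes a further central element protein, had 2.70, 5.06 and 5.03 FPKM in the SKO replicates, against 1.65, 2.37 and 1.79 FPKM in the wild-type replicates, without overlap (adjusted p = 0.439).

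For the 18 tested general cohesin genes and regulators the relative median was -0.29, with 6 above and 12 below. Meikin, whose protein guards centromeric cohesion in the first meiotic division, had 2.20, 2.10 and 2.29 FPKM in the SKO replicates, against 6.07, 4.83 and 6.29 FPKM in the wild-type replicates. The groups were well apart, with a log2 fold change of -1.07 (SE 0.31, limma, adjusted p = 0.275). Wapl, which releases cohesin from chromosomes, had 20.5 ± 7.04 FPKM in SKO and 58.3 ± 43.1 FPKM in wild type, where its replicates ran from 18.5 to 104 FPKM. Pttg1, the securin gene, had 78.2 ± 20.7 FPKM in SKO and 51.8 ± 16.3 FPKM in wild type.

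The 24 tested recombination genes lay evenly about the median of all rows, 12 above and 12 below. Psmc3ip, whose protein helps DMC1 pair DNA strands, had 74.9 ± 35.6 FPKM in SKO and 48.3 ± 15.3 FPKM in wild type. Tex15, a large gene needed for recombination and transposon silencing in the male germ line, had 35.6 ± 13.0 FPKM in SKO and 69.0 ± 25.2 FPKM in wild type (log2 fold change -0.94, adjusted p = 0.487).

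For the 7 tested telomere attachment genes the relative median was -0.23, with 2 above and 5 below. Sun1, which links telomeres to the nuclear envelope, had 24.5 ± 2.04 FPKM in SKO and 16.1 ± 3.22 FPKM in wild type, without overlap. For the 21 tested genes of meiotic entry and prophase control it was -0.16, with 9 above and 12 below. Hspa2, the chaperone gene needed to take the synaptonemal complex apart, had 174 ± 68.0 FPKM in SKO and 223 ± 82.2 FPKM in wild type. Dazl, a germ cell translation regulator, had 20.0 ± 11.1 FPKM in SKO and 3.23 ± 0.874 FPKM in wild type (log2 fold change 2.17, limma, adjusted p = 0.157). Dazl passed in 3 other settings, Tex15 in 2 and the spindle checkpoint gene Bub1 in 1.

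Markers of other testis cells were also summed in each library. The 11 Sertoli cell markers in the table summed to 86.0 to 120.1 FPKM in the SKO libraries and 26.4 to 33.7 FPKM in the wild-type libraries, and the 7 Leydig cell markers to 61.2 to 118 FPKM and 13.6 to 18.7 FPKM. With the deposited values 0 of 9 tested Sertoli and 0 of 7 tested Leydig markers passed, where 0.128% of all tested rows did. After TMM-type scaling 1 Sertoli and 0 Leydig markers passed, where 1.02% of rows did. In each list 5 markers had groups without overlap, all higher in SKO, against 15.7% of tested rows in either direction. Of the Sertoli markers 7 lay above the median of all tested rows and 2 below, and of the Leydig markers 7 and 0. Dcn, the connective tissue gene for decorin, rose to 8.96 ± 1.33 FPKM in SKO, against 1.11 ± 0.289 FPKM in wild type (limma, adjusted p = 0.0470), and passed in 5 of 16 other settings. The 10 markers of peritubular, endothelial, immune and blood cells in the table summed to 49.1 to 70.7 FPKM in SKO and 57.2 to 118 FPKM in wild type, a sum that joins members of opposite direction. Of these 10, 4 had groups without overlap and higher SKO values and 4 had groups without overlap and lower SKO values, against 15.7% of all tested rows in either direction. The smooth muscle gene Acta2 had 17.2 ± 4.48 FPKM in SKO and 2.93 ± 1.04 FPKM in wild type, while the haemoglobin genes Hba-a2 and Hbb-bs had 7.84 ± 3.69 and 9.38 ± 5.81 FPKM in SKO and 21.3 ± 10.6 and 27.5 ± 9.53 FPKM in wild type (SD, n = 3 each). The 12 spermatogonia markers in the table summed to 185 to 364 FPKM in SKO and 175 to 353 FPKM in wild type. Most of this sum was Ddx4 (means of 136 and 155 FPKM) and Dmrtb1 (126 and 90.0 FPKM), and 4 of the 12 averaged under 1 FPKM. Whether the footprints of Ddx4 and Dmrtb1 came from spermatogonia was not tested. Of the 8 tested, 5 lay above the median of all tested rows and 3 below, and 0 had groups without overlap. The 14 elongating spermatid markers summed to 412 to 619 FPKM in SKO and 343 to 545 FPKM in wild type. No marker in the table was at 0 in every library. The full lists named 18 Sertoli, 12 Leydig and 20 spermatogonia markers, and 18 of peritubular, endothelial, immune and blood cells. Markers without a row in the table could not be examined. The part of other cells in the differences among the meiotic genes was not tested.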

How the data were processed

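Ribosome footprints were measured in 3 Eif5a SKO and 3 wild-type libraries. The deposited values are FPKM per gene and library, computed by the authors. Per the submitters' processing notes, cutadapt, Bowtie2, STAR and Cufflinks were used, in an order not stated, with the build mm10. How ribosomal RNA and multi-mapping reads were treated, and which annotation served, is not stated. Columns headed cKO were taken as the SKO libraries by name and replicate number.

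Rows averaging 1 FPKM or more were fitted on log2(FPKM + 1) in R 4.3.3 by limma 3.58.1 (eBayes with a trend), without further scaling or a replicate term. The pseudocount understates changes of low genes. The fit was tested on simulated data. No count model was used, since read counts could not be recovered for all genes. TMM-type factors left out 0.3 of log ratios and 0.05 of levels at either end. Relative depth came from the commonest ratio between libraries over 3042 rows under 1 FPKM in every library. Cohesin ratios were compared by exact permutation. Symbols were matched to RefSeq GRCm38.p6 for identifiers, coordinates and promoter sequences, 19305 rows by symbol and 81 by synonym.

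The members, lists and tests were chosen with earlier results of these data known. The named genes were the 10 members, Eif5a, the cohesin counterparts, and in each list the 2 genes with the highest mean and the 2 with the smallest p. Stag1 was named after its values were seen, and several genes named by the rule are not described.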

Additional observations from a re-analysis of the deposited data

How the results depend on the processing

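With other pseudocounts, filters, scalings and variance models, the replicate block and each library left out, 0 members passed except under equal protein-coding sums, where 1 did (Syce2). Eif5a passed in all 16 of these settings. Syce1 turned sign, to -0.07 with TMM-type scaling, -0.20 with quantile normalization, -0.14 with equal protein-coding sums, and -0.24 and -0.13 without SKO replicate 2 or wild-type replicate 1. Stag3 turned to 0.04 without wild-type replicate 3. With TMM-type scaling and a library left out, a setting added after seeing the data, Syce1 was -0.29, -0.11, -0.20, -0.04, -0.01 and 0.15, and no other member turned sign. Across the leave-one-out settings without scaling, Syce1 ran from -0.24 to 0.48, Stag3 from -0.73 to 0.04, Syce2 from -1.36 to -0.74, Syce3 from 0.57 to 1.31, Sycp3 from 0.53 to 1.18, Tex12 from 0.20 to 1.01, Sycp1 from -0.36 to -0.07, Sycp2 from -0.71 to -0.30, Smc1b from -0.74 to -0.15 and Rec8 from -0.48 to -0.03.

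Rows past the test numbered 20 in all, 4 with a pseudocount of 5, 5 with no filter, 86 with a mean of at least 5 FPKM, 159 with TMM-type scaling (119 higher and 40 lower, against 17 and 3), 446 with quantile normalization, 517 with equal protein-coding sums, 63 with robust eBayes, 5 with the replicate block and 4 to 31 with a library left out. With TMM-type scaling as well they numbered 10, 23 and 13 without SKO replicates 1, 2 and 3 and 28, 8 and 4 without wild-type replicates 1, 2 and 3. Genes of the related lists past the test numbered 1 with a mean of at least 5 FPKM, 2 with quantile normalization and 3 with equal protein-coding sums. Same-numbered libraries deviated together with correlations of 0.16, -0.01 and 0.04, against -0.17 to 0.13 for the other combinations. With 3 libraries per group these values cannot decide whether the numbers pair the samples, and the labels state no pairing. With the replicate block 0 members passed, and the Stag3 to Stag2 log2 ratio differed by -1.56 with an exact sign-flip p of 0.25, the smallest possible. With a library left out that difference ran from -1.91 to -1.03. Values near 1 FPKM rest on few reads, which limits Tex12 most.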
